A study of Danio rerio with 4 samples.

Results

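The lysosomal genes described here are 56 of the 25432 annotated genes in a single-cell RNA-seq series of GFP-positive cells from 3 dpf zebrafish embryos. They were chosen by symbol, with earlier results of these data known. The set holds 20 cathepsins (cts followed by a letter), 22 subunits of the vacuolar ATPase (atp6v, 13 of the peripheral V1 sector and 9 of the membrane V0 sector), 3 lamp genes, and 11 listed genes (lgmn, gnsa, gnsb, hexa, hexb, npc1, npc2, psap, grn1, grna and grnb). The 56 entries carry 53 different symbols, because ctslb names 4 gene IDs, whose counts may be too low if the copies are near-identical. A unique molecular identifier (UMI, 1 counted transcript) was found in a kept cell for 53 of the 56.

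There were 2 libraries of flt1mut embryos, which carry the flt1ka604 allele in the Tg(kdrl:EGFP)zf531Tg reporter line, and 2 libraries of WT embryos of the same reporter line. Flt1 is a decoy receptor for Vegfa, and its loss raises Vegfa signalling. Every library was made from a pool of dissociated whole embryos sorted for GFP, which the kdrl promoter drives in endothelium. The sort still held blood, mesenchymal, epithelial and neuronal cells. The 2 libraries of a genotype are separate samples, and p-values measure the spread between such samples, which may be technical.

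Lysosomes break down material delivered by endocytosis, phagocytosis and autophagy. The vacuolar ATPase pumps protons into them, cathepsins and glycosidases digest proteins and sugars at the acid pH this makes, and LAMP proteins coat the membrane. Venous and lymphatic endothelium of zebrafish is known for scavenger receptors such as stab1, stab2 and mrc1a, which take up macromolecules for lysosomal breakdown. Leukocytes use cathepsins for killing and antigen processing.

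Of 7677 called cells, 5191 were kept (2065 and 1296 in the flt1mut libraries, 737 and 1093 in the WT libraries), with library totals of 16828951 to 33837917 UMIs and medians of 11165 to 16940 UMIs per kept cell. Only 4 barcodes occurred in more than 1 library. Clustering without the lysosomal genes gave 142 lymphatic-like, 202 venous-like, 191 arterial-like and 372 endocardial-like cells, and 87 myeloid-like cells. Endothelial subclusters of 164, 54 and 42 cells stayed outside these classes but are part of the 1167 cells taken as endothelium. The subcluster of 42 cells had an arterial marker sum of 8442 CPM (flt1mut libraries only), against 6494 CPM in arterial-like cells. The lymphatic marker sum was 557, 852 and 991 CPM in the subclusters of 164, 54 and 42 cells. It was 1229 CPM in lymphatic-like and 663 CPM in venous-like cells. The sum of the 54 cells rests on flt1mut replicate 2 and WT replicate 2, that of the 42 cells on the flt1mut libraries. Lymphatic-like cells carried 6 of 7 lymphatic markers, with tbx1 among their leading genes, and prox1a averaged 185 CPM (UMIs per 1e+06 UMIs of the summed class) in them against 24.9 CPM in venous-like cells. Their kdrl level was low, at 111 CPM against 1767 CPM in venous-like cells. Venous-like and arterial-like cells were named from their marker lists, but none of their 10 leading genes stands on those lists. The myeloid-like cells were granulocyte-like: they carried all 7 granulocyte markers, lyz alone took 66730 to 98668 CPM, and the macrophage list (17 genes, 14 with a UMI) summed to 714 and 663 CPM in the flt1mut and 683 and 1021 CPM in the WT libraries. Within that list mpeg1.1 and csf1ra were at 0 CPM in both flt1mut libraries, against 5.66 and 66.5 CPM (mpeg1.1) and 3.77 and 23.1 CPM (csf1ra) in the WT libraries. Their own kdrl level was 1.80 CPM. No macrophage cluster was found, so nothing below describes macrophages. Of the venous-like cells, 105 of 202 came from flt1mut replicate 1. Lymphatic-like cells numbered 53 and 31 in the flt1mut and 14 and 44 in the WT libraries, and myeloid-like cells 35 and 25 against 16 and 11.

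Endothelial classes differed widely in how much of their RNA was lysosomal. The 56 genes together took 1.00% ± 0.15 of all UMIs in lymphatic-like cells and 0.854% ± 0.105 in venous-like cells (SD, n = 4 libraries), against 0.343% ± 0.040 in arterial-like cells. Endocardial-like cells were between them at 0.521%, myeloid-like cells had 0.358% ± 0.053 and erythrocyte-like cells had 0.188%. In erythrocyte-like cells the erythrocyte list (12 genes) alone took 530523 to 647725 CPM, which lowers the share of all other genes. ctsla alone took a large part of the endothelial shares. Without it the share was 0.454% in lymphatic-like, 0.3498% in myeloid-like and 0.317% in venous-like cells, and it was 0.185% in endocardial-like and 0.177% in arterial-like cells. By mean level over these first 5 classes, 28 of the 56 genes were highest in lymphatic-like, 12 in myeloid-like, 7 in venous-like and 2 in endocardial-like cells, none was highest in arterial-like cells, and 7 had no UMI in them. How all genes divide over these classes was not counted. For genes near 0, such as atp6v0a1b (0.73 CPM) and grn1 (2.36 CPM), the highest class is uncertain. The families did not share 1 order. Cathepsins summed to 6399 CPM in lymphatic-like and 6171 CPM in venous-like cells, against 1997 CPM in arterial-like cells. ctsla made up most of the endothelial sums, and the other cathepsins summed to 1354 CPM in myeloid-like cells, 908 CPM in lymphatic-like cells and 798 CPM in venous-like cells, against 336 CPM in the arterial-like class. Vacuolar ATPase subunits summed to 2034 CPM in lymphatic-like cells, but to only 1128 CPM in venous-like cells, with 892 CPM for arterial-like cells.

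**Figure D1:**
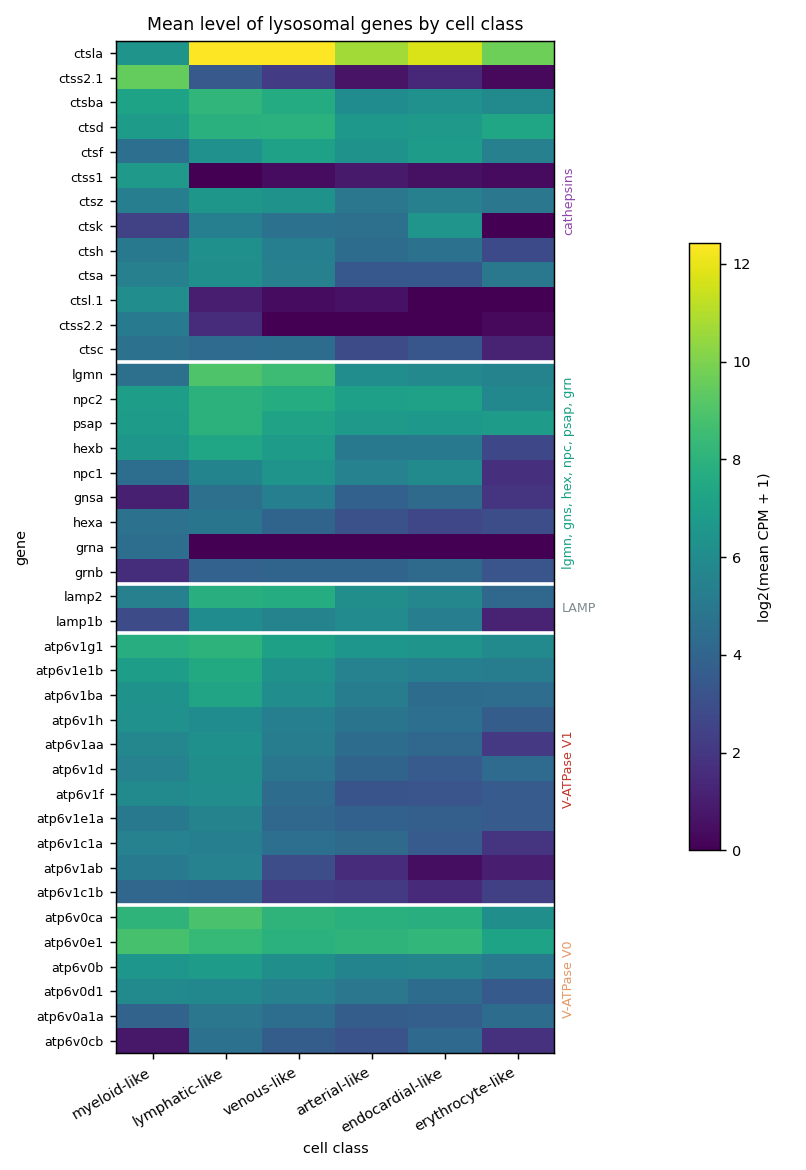
Mean level, as log2(mean CPM + 1), of the 41 lysosomal genes that passed the low-count filter in the fit of myeloid-like cells and endothelium, over 4 libraries (3 for erythrocyte-like cells), grouped by family. Colours compare classes along a row and not genes with each other. The V1 rows are bright in myeloid-like and lymphatic-like cells, and ctss2.1, ctss1 and grna in myeloid-like cells.

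Venous-like cells were compared with arterial-like cells because the study asked about sprouting from veins. Of the 32 genes that passed the filter, 13 rose in venous-like cells and 0 fell. Over all 5598 genes tested, 9.75% rose and 7.11% fell (16.9% in either direction). The 13 were 6 of 8 cathepsins, 4 of 7 listed genes, lamp2 and 2 of 10 V1 subunits, with 0 of 5 V0 subunits. The 32 genes had a median log2 fold change of 0.87, against -0.01 over all genes.

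ctsla (ENSDARG00000007836), a cathepsin L, had 5901 and 5977 CPM in venous-like cells of the flt1mut libraries and 5958 and 3657 CPM in those of the WT libraries. In arterial-like cells it had 2102 and 1500.1 CPM in the flt1mut and 1887 and 1157 CPM in the WT libraries. The lowest venous-like value was above the highest arterial-like one, and ctsla rose by 1.78 ± 0.17 (log2 fold change ± SE; edgeR quasi-likelihood test, adjusted p = 5.2e-07). ctsla UMIs were also found in other cells of the sort, at 826 ± 474 CPM in erythrocyte-like cells (SD, n = 3) but 28.4 ± 13.1 CPM in lymphoid-like cells (n = 4), so the erythrocyte-like level was not taken as a free-RNA baseline for this gene. Thinned to 1000 UMIs per cell, 95.4% of venous-like and 70.2% of arterial-like cells had a ctsla UMI (99.5% and 94.8% unthinned), against 53.6% of erythrocyte-like and 4.65% of myeloid-like cells.

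lgmn (ENSDARG00000039150) encodes legumain, an asparaginyl endopeptidase that cleaves and activates cathepsins. It had 280 and 401 CPM in venous-like cells of the flt1mut libraries and 314 and 478 CPM in those of the WT libraries. In arterial-like cells the range was 59.3 to 71.5 CPM, so that the classes stood far apart in all 4 libraries. The log2 fold change was 2.49 ± 0.22 (edgeR adjusted p = 3.4e-07). In cells thinned to 1000 UMIs, 21.4% of venous-like cells had an lgmn UMI (exact 95% interval 15.9 to 27.8%, counting error only) and 6.91% of arterial-like cells (3.73 to 11.5%), close to the 4.97% of erythrocyte-like cells (2.30 to 9.23%). Their median depths were 7093, 7522 and 18911.5 UMIs. Most UMIs of the erythrocyte-like cells were of erythrocyte markers, which leaves fewer for lgmn at equal depth.

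Further proteases and glycosidases also rose in venous-like cells. ctsa, which as cathepsin A also protects glycosidases in mammals, rose by 2.17 ± 0.43. The β-hexosaminidase subunit gene hexb rose by 1.88 ± 0.34, with 67.2 to 184 CPM in venous-like against 10.2 to 71.5 CPM in arterial-like cells. Of these ranges only the highest arterial-like value, WT replicate 2, overlapped. ctsba (cathepsin B) rose by 1.63 ± 0.23, ctsz by 1.40 ± 0.35 and ctsd, the main aspartic protease of lysosomes, by 1.33 ± 0.25. gnsa, a sulfatase that degrades heparan sulfate, rose by 1.48 ± 0.48, but lost its call in 8 alternatives, among them DESeq2, library totals as the scaling, and leaving out flt1mut replicate 2 (1.14), WT replicate 1 (1.57) or WT replicate 2 (1.46). With no upper limit on genes per cell it was at 0.24. ctsf and atp6v1e1b also lost their call with library totals as the scaling. npc2, which carries cholesterol, rose by 0.77 ± 0.20, ctsf by 0.84 ± 0.27 with a higher CPM in 3 of 4 libraries, and lamp2, a lysosomal membrane coat protein, by 1.67 ± 0.26. lamp2 had 159 to 251 CPM in venous-like and 42.4 to 115 CPM in arterial-like cells, with no overlap. Its relative lamp1b did not pass, at -0.45 ± 0.31. Among pump subunits atp6v1ba and atp6v1e1b passed, at 0.96 ± 0.26 and 0.88 ± 0.29. The call of atp6v1ba was lost in 6 alternatives. All edgeR adjusted p-values of the genes in this paragraph that rose were between 4.9e-05 and 0.045.

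Lymphatic-like cells were set against the same arterial-like sums. Here 24 of 32 genes rose and 0 fell, where 10.6% of all genes tested rose and 10.5% fell (21.1% either way). The median over the 32 was 1.49 on the log2 scale against -0.06 over all genes. These 24 were 6 of 8 cathepsins, 5 of 7 listed genes, lamp2, 9 of 10 V1 subunits and 3 of 5 V0 subunits. lgmn had 384 and 528 CPM in lymphatic-like cells of the flt1mut and 437 and 724 CPM in those of the WT libraries, and rose by 2.91 ± 0.22 (edgeR adjusted p = 2.4e-08). Further down came ctsa at 2.77 ± 0.41, hexb at 2.49 ± 0.33, ctsba at 2.11 ± 0.22 and the second hexosaminidase subunit gene hexa at 1.85 ± 0.53. ctsla rose by 1.73 ± 0.17. psap, the precursor of the saposins that help degrade sphingolipids, rose by 1.22 ± 0.21. The genes that did not pass were atp6v0d1, atp6v0e1, atp6v1c1a, ctsf, ctsk, gnsa, lamp1b and npc1, at 0.02 to 1.21. Both comparisons share the arterial-like sums, and their counts are not independent of each other.

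In the direct comparison of lymphatic-like with venous-like cells, most calls were subunits of the proton pump. Of 32 genes 9 rose in lymphatic-like cells and 1 fell, where 5.88% of all genes tested rose and 10.4% fell (16.3% either way). The 9 were 7 of 10 V1 subunits, 1 of 5 V0 subunits and psap, while 0 of 8 cathepsins rose and 1, ctsf, fell. The V1 median was 1.08 on the log2 scale, the cathepsin median 0.29, and that of all genes 0.00.

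atp6v1ab (ENSDARG00000076318), 1 of 2 genes for the catalytic A subunit, had 72.3 and 20.4 CPM in lymphatic-like cells of the flt1mut and 32.4 and 50.4 CPM in those of the WT libraries. In venous-like cells it had 1.29 and 6.52 CPM in the flt1mut and 18.7 and 0 CPM in the WT libraries. The lymphatic-like values were all higher, though the closest pair, 20.4 and 18.7 CPM, nearly met. These levels rest on 75 UMIs in lymphatic-like and 7 UMIs in venous-like cells, a ratio of 10.6 (95% counting interval 4.89 to 27.2), and the fitted log2 fold change was 3.12 ± 0.70 (edgeR adjusted p = 0.0038). In arterial-like cells 3 UMIs were counted, a ratio of 26.9 (8.87 to 134), and in endocardial-like cells 2. atp6v1ab passed the filter through its lymphatic-like counts alone, so that its direction against venous-like and arterial-like cells was set beforehand. It is counted among the V1 subunits that rose in both comparisons and in their medians, and its calls add no support. Its paralog atp6v1aa had 52.5 to 97.1 CPM in lymphatic-like and 33.1 to 39.1 CPM in venous-like cells, and did not pass (0.91 ± 0.38, edgeR adjusted p = 0.12).

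atp6v1f, a small subunit of the central V1 stalk, had 51.7 and 64.2 CPM in lymphatic-like cells of the flt1mut and 89.0 and 60.8 CPM in those of the WT libraries. In venous-like cells it had 14.2 and 22.8 CPM in the flt1mut and 32.8 and 9.46 CPM in the WT libraries, so that no values overlapped (1.66 ± 0.34, edgeR adjusted p = 0.0020). Among the venous-like sums only that of WT replicate 1 reached the level the filter asks for. So atp6v1f passed through its lymphatic-like counts, and its direction was largely set beforehand. It is counted among the V1 subunits that rose and in their medians, and its calls add no support. The E subunit of the peripheral stalk has 2 genes here. atp6v1e1b had 102 to 277 CPM in lymphatic-like and 56.8 to 110 CPM in venous-like cells (1.102 ± 0.26), and atp6v1e1a 37.9 to 62.5 CPM and 5.17 to 33.1 CPM (1.60 ± 0.45). The other V1 genes past the threshold were atp6v1d, of the rotor, at 1.36 ± 0.37, atp6v1ba, of the nucleotide-binding B subunit, at 1.06 ± 0.23, and atp6v1g1 at 0.86 ± 0.23. In the membrane sector atp6v0ca, of the proton-carrying c ring, had 333 to 612 CPM in lymphatic-like and 256 to 303 CPM in venous-like cells (0.67 ± 0.20). The call of atp6v0ca was lost in 10 alternatives and that of atp6v1e1a in 9, among them DESeq2. Calls were lost in 5 alternatives each for atp6v1d and atp6v1g1, and in 3 each for atp6v1f, atp6v1e1b and atp6v1ba. The adjusted p-values of these genes were between 0.0029 and 0.022 by edgeR.

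Most hydrolases that rose in venous-like over arterial-like cells did not pass between lymphatic-like and venous-like cells, which does not show equal levels. ctsla was at -0.05 ± 0.16 on the log2 scale, ctsd at -0.09 ± 0.24, ctsz at 0.10 ± 0.32, ctsba at 0.48 ± 0.21, ctsa at 0.61 ± 0.33, hexb at 0.62 ± 0.29, lamp2 at 0.14 ± 0.24 and lgmn at 0.42 ± 0.19 (edgeR adjusted p = 0.16 for lgmn). psap rose by 0.68 ± 0.21, but lost its call in 12 alternatives. ctsf had 114 and 93.3 CPM in lymphatic-like cells of the flt1mut and 32.4 and 64.2 CPM in those of the WT libraries, against 129, 163, 93.7 and 161 CPM in venous-like cells, and fell by 0.83 ± 0.28 (edgeR adjusted p = 0.046, and 0.074 with library totals as the scaling). The ranges of ctsf overlapped, and its call was lost in 14 alternatives.

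The calls of the lymphatic-like against venous-like comparison were sensitive to single libraries: 4 genes passed without flt1mut replicate 1, 6 without WT replicate 1 and 6 without WT replicate 2. With sub-clustering at resolution 1.5, 4 genes rose and 4 fell, and with no upper limit on genes per cell 0 passed, a setting in which venous-like cells were named in 2 libraries only. Shares of all genes called in these refits are not given, so the counts show only how stable the calls were.

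**Figure D2:**
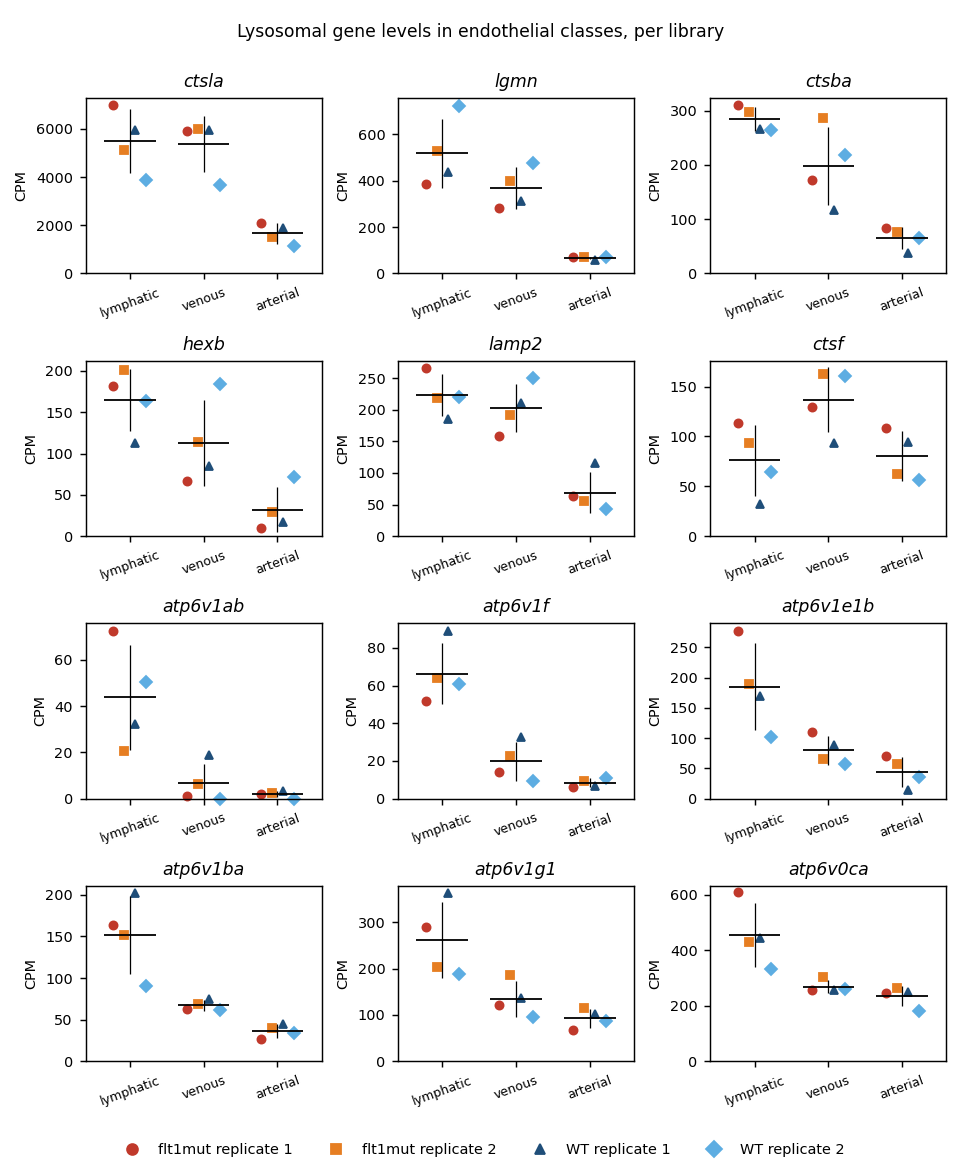
CPM of 12 lysosomal genes in lymphatic-like, venous-like and arterial-like cells, 1 symbol per library, with the mean (bar) and SD (line) over 4 libraries; each axis starts at 0. ctsla, lgmn and lamp2 are high in both lymphatic-like and venous-like cells, and atp6v1ab, atp6v1f and atp6v1ba are highest in lymphatic-like cells by mean.

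**Figure D3:**
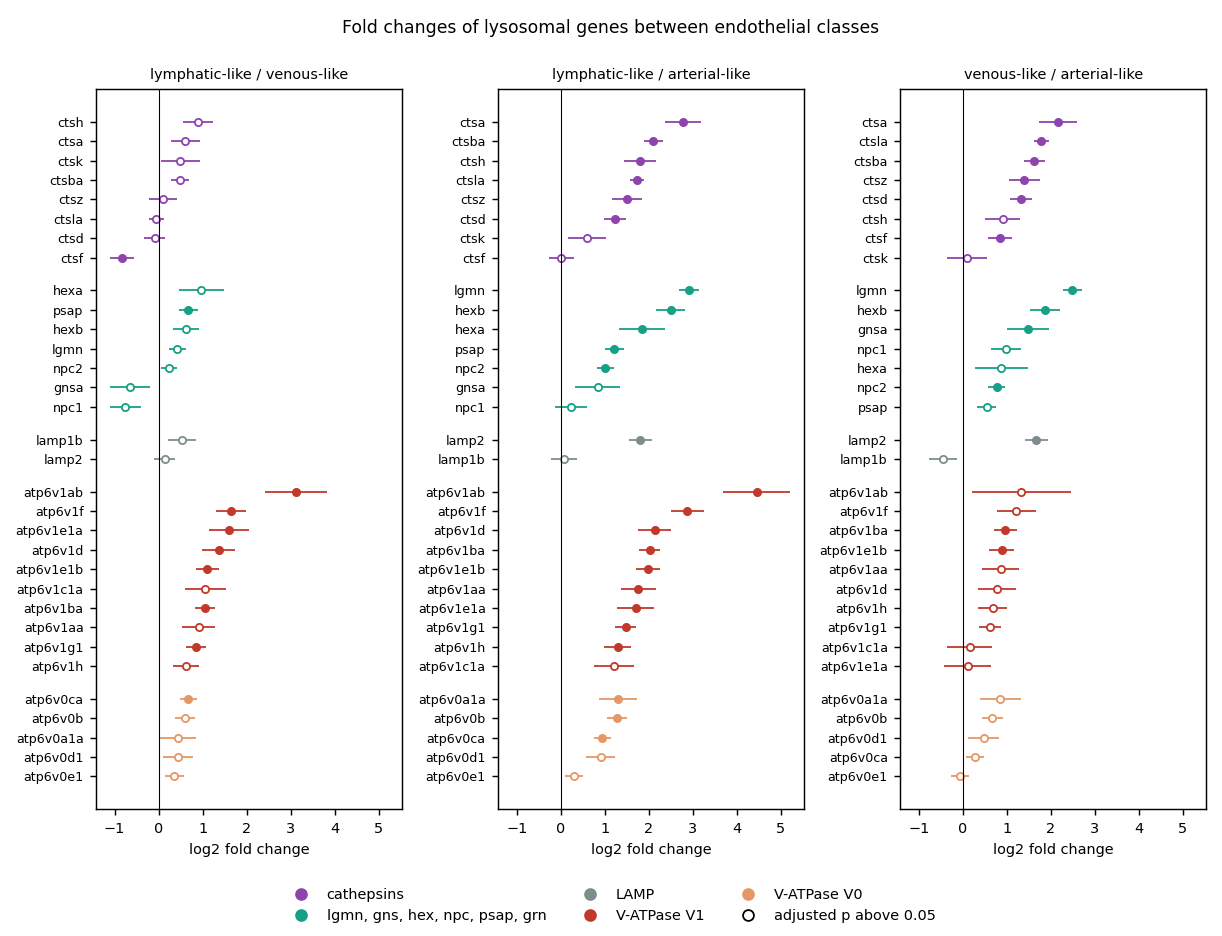
Log2 fold change and SE (edgeR) of the 32 lysosomal genes tested between endothelial classes, ordered by family; filled points passed an adjusted p of 0.05. The V1 subunits lie to the right of 0 in lymphatic-like against venous-like cells (7 of 10 filled), the cathepsins in both comparisons with arterial-like cells (6 of 8 filled in each).

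RNA of leukocytes was looked for beside these results. The pan-leukocyte list (10 genes) summed to 154 to 613 CPM in lymphatic-like and 1154 to 1493 CPM in venous-like cells, against 761 to 971 CPM in arterial-like cells, but most of it was srgn, which averaged 330 CPM in lymphatic-like, 1269 CPM in venous-like cells, and 723 CPM among arterial-like ones. ptprc, spi1b and coro1a reached at most 8.93 CPM in any library of the 3 classes, and mpeg1.1 and marco were at 0. The macrophage list (17 genes) summed to 5.8 to 64.1 CPM in lymphatic-like and 6.5 to 56.8 CPM in venous-like cells, against 2.0 to 10.5 CPM in arterial-like cells. The microglia list (5 genes) summed to 13.9 to 93.0 CPM in lymphatic-like and 70.3 to 192 CPM in venous-like cells, against 2.23 to 30.6 CPM in arterial-like cells, with p2ry12 and p2ry13 at 0 in the first 2 classes. In a refit, endothelial cells with a UMI of ptprc, coro1a, spi1b, lcp1 or mpeg1.1 were left out, and srgn was not used. Then 24 genes passed in lymphatic-like against arterial-like, 10 in venous-like against arterial-like and 10 in lymphatic-like against venous-like cells. The share of all genes called in this refit is not given, so these counts show only how stable the calls were. Sums of the thrombocyte list (6 genes) were 130 to 595 CPM in lymphatic-like and 222 to 571 CPM in venous-like cells, against 13.4 to 116 CPM in arterial-like cells, with itga2b at 0 in all 3, and their part in the result was not tested.

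Other endothelium gave 2 further patterns, as levels with no test. Endocardial-like cells had ctsla at 3359 ± 1130 CPM (SD, n = 4) but lgmn at 57.1 ± 14.9 CPM, a level like that of arterial-like cells. One endocardial-like subcluster had ctsla at 5899 CPM and lgmn at 40.7 CPM. ctsk, a collagen-degrading cathepsin of osteoclasts, averaged 87.1 CPM in endocardial-like and 23.1 to 40.3 CPM in the other 3 endothelial classes, and 272 CPM in thrombocyte-like cells. atp6v0cb, the second c-ring gene, stood at 584 CPM in neuronal-like cells and at 8.09 to 23.8 CPM in the 4 endothelial classes.

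Myeloid-like cells differed from endothelium in the level of most lysosomal genes tested. Of the 41 genes that passed the filter 24 rose and 10 fell against all endothelial cells, while 24.4% of the 8332 genes tested rose and 37.1% fell (61.5% either way). The members' median was 1.00 on the log2 scale and that of all genes -0.26. With library totals as the scaling the median of all genes became -0.59, and 20 lysosomal genes rose and 10 fell. The members' median and the share of all genes called with that scaling are not given, so the -0.59 is not to be set against the 1.00. With that scaling 0 of the 34 called genes turned direction, and atp6v0b, atp6v1ba, atp6v1e1a and ctsba lost their call.

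The cathepsin S genes were far higher in myeloid-like cells than in endothelium. ctss2.1 (ENSDARG00000074656) had 1352 and 598 CPM in myeloid-like cells of the flt1mut and 459 and 497 CPM in those of the WT libraries, against 0.67 to 4.18 CPM in endothelium. ctss1 had 131 and 103 CPM in the flt1mut and 142 and 37.6 CPM in the WT libraries, from 234 UMIs, against 4 UMIs in endothelium (ratio 280, counting interval 108 to 1036). ctss2.2 had 62 UMIs against 2 (ratio 148, 39.4 to 1252). Over all kept cells ctss2.2 had 543 UMIs, most of them in other sorted cells, and ctss2.1 had 4476. Neither gene is therefore particular to myeloid-like cells. Cathepsin S cleaves the invariant chain of MHC class II in mammals. ctsl.1, a second cathepsin L gene, had 135 UMIs against 5 but none in flt1mut replicate 2. grna, a progranulin gene, had 41 UMIs in myeloid-like cells and 0 in endothelium. With 3 UMIs put in place of the 0, the ratio was 65.4, which leaves out the counting error of the 41 UMIs and is no bound. The fitted log2 fold changes of these 5 genes (6.74 to 8.26) depend on the prior count and are no bounds. These genes passed the filter through their myeloid-like counts alone, so that their direction was set beforehand. They are counted among the genes that rose and in the members' median, and their calls add no support.

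Other lysosomal genes were lower in myeloid-like cells than in endothelium. ctsla had 32.0 and 75.8 CPM in myeloid-like cells of the flt1mut and 35.9 and 194 CPM in those of the WT libraries, against 4773 and 3326 CPM and 3477 and 2387 CPM in endothelium, and fell by 5.30 ± 0.45 on the log2 scale (edgeR adjusted p = 7.8e-08). lgmn had 17.2 to 26.4 CPM in myeloid-like cells against 126 to 252 CPM in endothelium and fell by 2.68 ± 0.26. The progranulin gene grnb had 5 UMIs against 156 (ratio 0.153, 0.0491 to 0.366), opposite to grna. Its call was lost with no upper limit on genes per cell (-0.56), a mitochondrial limit of 10% (-0.24) and first clustering at resolution 1 (-0.76). Also lower were gnsa (2 UMIs against 227), atp6v0cb (2 against 165), ctsk (9 against 450), lamp1b by 2.61 ± 0.35, ctsf by 1.82 ± 0.25, lamp2 by 1.12 ± 0.25, and npc1, a cholesterol transporter of the lysosomal membrane, by 1.06 ± 0.27. Of these genes grnb, gnsa, atp6v0cb and ctsk passed the filter through their endothelial counts alone, so that their direction was set beforehand. They are counted among the genes that fell and in the members' median, and their calls add no support.

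Every V1 subunit gene that passed the filter, 11 of 11, rose in myeloid-like cells (9 with library totals as the scaling, 11 still positive), along with 3 of 6 V0 genes. The V1 fold changes ran from 0.93 ± 0.27 for atp6v1ba to 2.28 ± 0.46 for atp6v1c1b, which had 8.61 to 22.9 CPM in myeloid-like cells against 1.19 to 5.57 CPM in endothelium. But atp6v1c1b passed the filter through its myeloid-like counts alone, so that its direction was set beforehand. It is counted among the 11, and its call adds no support. atp6v1f had 52.1 to 67.2 CPM in myeloid-like cells against 15.7 to 25.8 CPM in endothelium (1.88 ± 0.24), atp6v1ab 24.4 to 54.9 CPM against 10.3 to 16.1 CPM (1.64 ± 0.32), and atp6v1c1a was at 1.53 ± 0.26. hexa rose by 1.52 ± 0.36. ctsd, ctsz, ctsh, psap and npc2 did not pass, at -0.23 to 0.19. Of the genes past the threshold, hexb, ctsba and atp6v0b had a higher CPM in 3 of 4 libraries.

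The counts depended on which cluster stood for myeloid cells. With a blood progenitor-like cluster, which has spi2 and cxcr3.2 among its leading genes, in place of the granulocyte-like one, 6 genes rose and 16 fell, and atp6v1f, atp6v1c1a and atp6v1h were at -0.25, -0.39 and -0.01, not past the threshold. The share of all genes called with that cluster is not given here. These counts are therefore no result about lysosomal genes as a set.

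**Figure D4:**
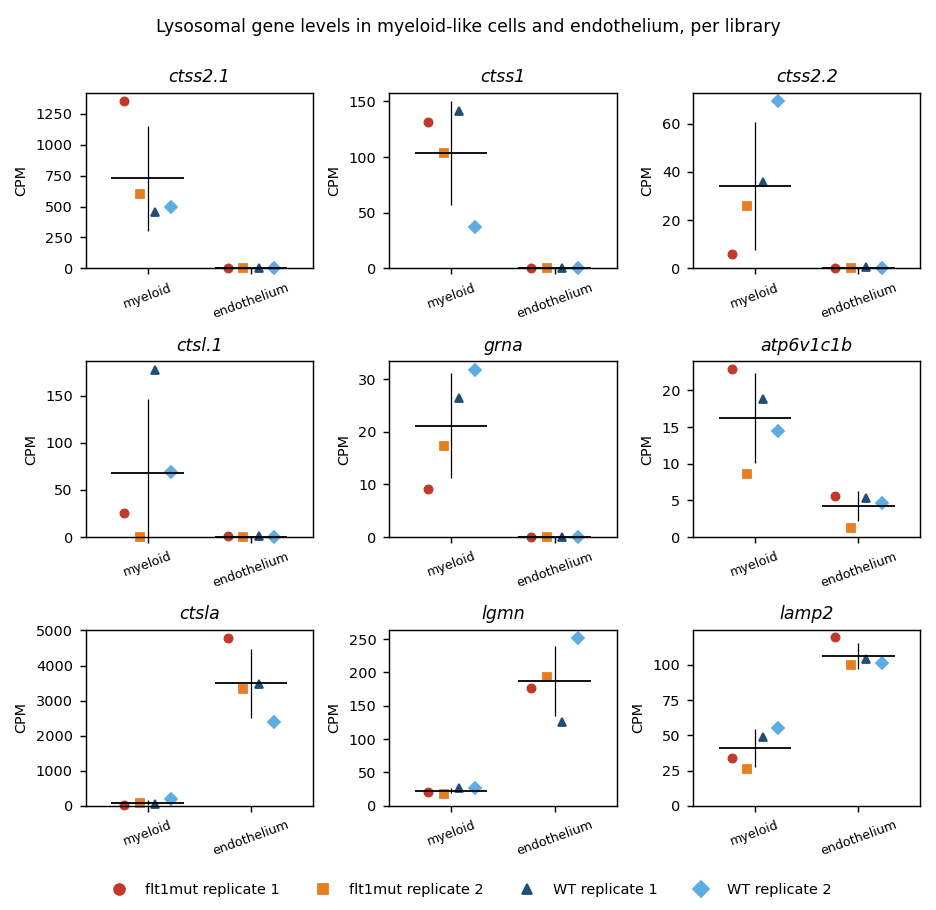
CPM of 9 lysosomal genes in myeloid-like cells and endothelium, 1 symbol per library, with mean (bar) and SD (line) over 4 libraries; each axis starts at 0. The cathepsin S genes, ctsl.1 and grna are near 0 in endothelium, and ctsla, lgmn and lamp2 are lower in myeloid-like cells in all 4 libraries.

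Lysosomal genes outside the rule were followed with a list of 99 symbols, of which 91 were found. In venous-like against arterial-like cells 12 of 40 tested rose and 1 fell (32.5%, against 16.9% of all genes), among them asah1b (acid ceramidase, 2.48 ± 0.52), rnaset2 (an acid ribonuclease, 1.98 ± 0.23) and the fucosidase fuca2 (1.94 ± 0.29), with the membrane protein gene scarb2a lower (-0.59 ± 0.20). In lymphatic-like against arterial-like cells 18 of 40 rose and 2 fell (50%, against 21.1% of all genes). The regulators gave 6 of 10 here, with lamtor1 and lamtor4, of the Ragulator complex that recruits mTORC1 to lysosomes, at 2.198 ± 0.61 and 1.81 ± 0.35. In lymphatic-like against venous-like cells 3 rose and 3 fell, a share of 15% that lies near the 16.3% of all genes. The risers were lamtor4 (1.15 ± 0.35), the pump accessory subunit atp6ap2 (0.90 ± 0.24) and the transcription factor tfe3a (0.81 ± 0.24), and mfsd8, ifi30 and scarb2a were lower, at -2.14 ± 0.53, -1.12 ± 0.29 and -0.87 ± 0.20. Against endothelium, 25 of 57 rose and 9 fell in myeloid-like cells (59.6%, near the 61.5% of all genes), among them laptm5, a lysosomal membrane protein of leukocytes (8.01 ± 0.33), and laptm4b (-6.58 ± 0.58). All of these passed an edgeR adjusted p of 0.05.

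No lysosomal gene passed the threshold between flt1mut and WT libraries. In endothelium 0 of 39 genes tested passed, and 0 of all 9904 (0%). At an unadjusted p under 0.05 there were 446 genes and 1 lysosomal gene, and DESeq2 called 8 genes of which 0 were lysosomal. The gene with the smallest p was atp6v1e1b, with 111 and 77.4 CPM in flt1mut against 54.5 and 48.7 CPM in WT endothelium, values that did not overlap (0.81 ± 0.29, edgeR adjusted p = 0.99). ctsa had 29.6 and 32.6 CPM in flt1mut against 22.2 and 15.2 CPM in WT endothelium (0.68 ± 0.32), and ctsf 118 and 109 CPM against 81.4 and 86.6 CPM (0.37 ± 0.21). atp6v1ba was at 0.46 ± 0.25, but at -0.12 in venous-like and -0.30 in arterial-like cells alone, and ctsba at 0.43 ± 0.24. ctsla had 4773 and 3326 CPM in flt1mut against 3477 and 2387 CPM in WT endothelium (0.39 ± 0.35), with overlap. The summed level of the 56 genes was 7258 and 6015 CPM in flt1mut and 5542 and 4884 CPM in WT endothelium. Without ctsla it was 2485 and 2689 CPM in flt1mut and 2065 and 2497 CPM in WT endothelium, and these values overlapped. The makeup of these sums differed between libraries: venous-like cells were 27.4 and 13.2% of endothelial cells in the flt1mut libraries, against 14.2 and 10.5% in the WT libraries, and lymphatic-like cells 13.8 and 10.3% against 7.95 and 14.4%. Endocardial-like cells were 30.03 and 24.5% in the flt1mut libraries, against 39.2 and 37.3% in the WT libraries, with no overlap. Their part in these levels was not tested. Fits in lymphatic-like, venous-like or arterial-like cells alone also gave 0 lysosomal genes past the threshold. The fit of all endothelium had called 0 of all genes too.

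In myeloid-like cells 0 of 35 genes passed, and 0.418% of the 4070 genes tested did (17 genes). The sums held 35 and 25 cells in the flt1mut libraries, but only 16 and 11 cells in the WT libraries. At an unadjusted p under 0.05 there were 300 genes and 6 lysosomal genes, and DESeq2 called 28 genes of which 0 were lysosomal. ctsl.1 had 25.9 and 0 CPM in flt1mut against 177 and 69.4 CPM in WT cells (-3.27 ± 0.88, edgeR adjusted p = 0.31), and passed without flt1mut replicate 2 (-2.37), WT replicate 1 (-2.42) or WT replicate 2 (-3.79). It also passed without flt1mut replicate 1, where the flt1mut library left has 0 CPM and the fitted fold is no bound. Each of these fits has 1 library in 1 genotype, which is assumed to vary like the 2 of the other, so that they say little about stability. atp6v0ca had 211 and 164 CPM in flt1mut against 357 and 359 CPM in WT cells (-0.99 ± 0.26, adjusted p = 0.30). hexa (1.67 ± 0.57), ctss2.1 (0.96 ± 0.34) and ctss2.2 (-1.74 ± 0.66) had adjusted p-values of 0.55 to 0.62. Some myeloid markers differed in the same libraries. npsn had 6685 and 4119 CPM in flt1mut against 3139 and 1252 CPM in WT cells, and the granulocyte list 107413 and 107204 CPM against 83017 and 69709 CPM. csf1ra, near 0 throughout, had 0 and 0 CPM against 3.77 and 23.1 CPM. The macrophage list that holds it summed to 714 and 663 CPM in flt1mut against 683 and 1021 CPM in WT cells, with overlap. The part of these markers in the lysosomal values was not tested.

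The difference between the genotype effects in the 2 cell classes was tested as an interaction. Of 41 lysosomal genes 0 passed, where 0.384% of 8332 genes did (32 genes), and 4 lysosomal genes and 398 genes had an unadjusted p under 0.05. DESeq2 called 5 genes, of which 0 were lysosomal. The smallest p-values were those of ctsl.1 (-4.39 ± 1.54), atp6v0ca (-1.22 ± 0.43), ctsla (-1.24 ± 0.47), ctsh (-1.21 ± 0.61) and atp6v1e1b (-0.91 ± 0.48), with edgeR adjusted p-values of 0.38 to 1.0. ctsla was called in the interaction without flt1mut replicate 2 (-2.28) and without WT replicate 1 (-2.66), and turned to 0.49 without WT replicate 2.

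**Figure D5:**
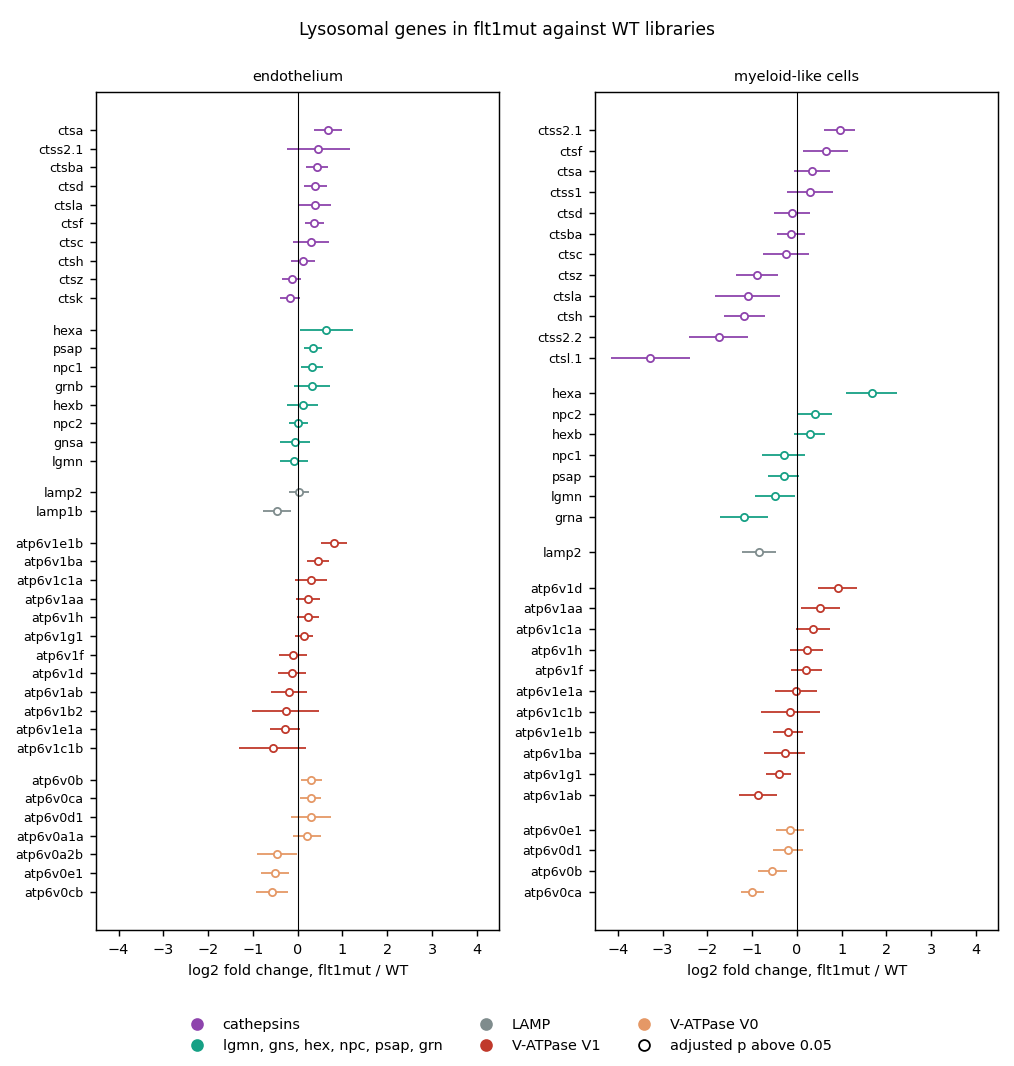
Log2 fold change and SE (edgeR) of lysosomal genes in flt1mut against WT libraries, in endothelium (39 genes) and in myeloid-like cells (35 genes), by family. All points are open because none passed an adjusted p of 0.05; in myeloid-like cells ctsl.1 lies farthest from 0.

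In the fit of myeloid-like cells and endothelium 15 of the 56 genes did not pass the filter: ctsbb, the 4 ctslb entries, ctsll, ctso, atp6v0a1b, atp6v0a2a, atp6v0a2b, atp6v1c2, atp6v1b2, grn1, gnsb and lamp1a. In the fit of endothelial classes 9 more fell below it, namely atp6v0cb, atp6v1c1b, ctsc, ctsl.1, ctss1, ctss2.1, ctss2.2, grna and grnb. Of the 15, atp6v0a2b and atp6v1b2 were tested between genotypes in endothelium and did not pass. The others were not tested where they fell below the filter, and low counts do not show absence. gnsb had 14 UMIs in lymphatic-like cells, 0 in venous-like and 1 in arterial-like cells. atp6v1c1b had 22 UMIs in lymphatic-like and 4 in venous-like cells, a ratio of 5.43 (95% counting interval 1.84 to 21.7).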

How the data were processed

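The authors deposited raw UMI counts per gene and called cell for each library, made with Cell Ranger 6.1.1 (per the file headers) on GRCz11. The labels name another version of the 3′ chemistry than the study's methods. Cells were kept at over 200 but below 4500 detected genes, with mitochondrial UMIs below 5%, and were clustered with Seurat 5.3.0 (scale factor 10000, 2000 variable genes less all lysosomal genes, 20 components, resolution 0.5, endothelial clusters again at 1). Clusters were named from marker lists, needing at least 3 markers. Doublets were not removed, since scrublet marked 25 of 5191 cells.

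Counts were summed per library and class (at least 10 cells) and tested with edgeR 4.0.16 (TMM, filterByExpr, quasi-likelihood F test, two-sided, Benjamini-Hochberg adjustment over all genes tested, threshold 0.05), with library as block between classes and genotype alone between flt1mut and WT. SE is the absolute log2 fold change divided by the root of F. CPM are not TMM scaled or divided by length. Differences per library used a pseudocount of 1 CPM. The fits were also run on simulated counts. These had the same dispersion for every gene and, but for the changed genes, the same mean profile in every class. The data differ in this, so no error rate is drawn from that run. Gene lists and members were chosen with earlier results of these data known, and naming thresholds were set after clusters and levels had been seen. Named were up to 10 genes each way with adjusted p at most 0.05 and the same direction in every library, their paralogs, and for genotype the 5 with the smallest p. Other genes, the CPM ranges and gene lists of cells of other kinds were added after values were seen. Alternatives were DESeq2 1.42.0, other scalings, filters, resolutions and left-out libraries. Sequences are not shown, as no table used here holds them.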

Additional observations from a re-analysis of the deposited data

Results flagged for a closer look

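Dixon's test on groups of 4 libraries flagged 3 of the 65 groups checked, where chance flags about 1 in 20. The log2 difference of ctsd between venous-like and arterial-like cells was 0.142 in flt1mut replicate 1, against 1.60 to 1.70 in the other libraries. That library also gave 105 of the 202 venous-like cells. The log2 difference of ctsba between lymphatic-like and arterial-like cells was 2.77 in WT replicate 1, against 1.88 to 2.01. The summed vacuolar ATPase level of arterial-like cells was 1030.3 CPM in flt1mut replicate 2, against 836 to 855 CPM.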

How the results depend on the processing

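Counts of genes past the threshold stayed within 1.5 times of those given, except as follows. Myeloid-like against endothelium gave 22 with the blood progenitor-like cluster. Venous-like against arterial-like gave 6 with no upper limit on genes per cell, 6 in WT libraries alone and 6 in flt1mut libraries alone. Lymphatic-like against venous-like gave 0 with no upper limit on genes per cell, 1 in WT and 4 in flt1mut libraries alone. Genotype in myeloid-like cells gave 2 with no low-count filter. Leaving out 1 library gave 32 to 34 genes (myeloid-like against endothelium), 9 to 12 (venous-like against arterial-like), 21 to 25 (lymphatic-like against arterial-like), 4 to 7 (lymphatic-like against venous-like), 0 to 0 (genotype in endothelium), 1 to 4 (genotype in myeloid-like cells) and 0 to 1 (interaction). The causes were not tested. Shares of all genes called in the refits are not given, so these counts show only how stable the calls were. Added after seeing the data were the blood progenitor-like cluster, moves of single subclusters, genotype in single classes and library totals as the scaling.

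With the replicate number as block, genotype gave 0 lysosomal genes in endothelium (119 of all genes) and 1 in myeloid-like cells, ctsl.1 (-3.47). The libraries share only a number; deviations of same-numbered libraries correlated at 0.432 in endothelium and 0.18 in myeloid-like cells, with 2 pairs each.

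Of 1320 refits of the named genes 1196 kept direction and side of the threshold, 102 lost the call, 12 gained one and 10 turned sign. The turned values were -0.246 (atp6v1f), -0.389 (atp6v1c1a) and -0.00623 (atp6v1h) with the blood progenitor-like cluster; -0.122 in venous-like and -0.300 in arterial-like cells alone (atp6v1ba, genotype); 0.0727 (atp6v0ca, genotype) and 0.671 (ctss2.2, genotype) with no upper limit on genes, and 0.137 (ctss2.2) at resolution 1; and, for ctsla in the interaction, -2.66 to 0.487 over the left-out libraries (0.487 without WT replicate 2) and 0.083 with 10% mitochondrial UMIs allowed. Of the 102 lost calls 65 were in lymphatic-like against venous-like. Thinned to 2000 UMIs in place of 1000, 45.8% and not 31.7% of lymphatic-like cells had an lgmn UMI. With at least 20 cells per sum, genotype in myeloid-like cells and the interaction could not be fitted. Depth limits low genes: 15 did not pass the filter in the fit of myeloid-like cells and endothelium.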
